A study of Drosophila melanogaster with 2 samples.

Results

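The genes described here encode the initiation and elongation factors of cytoplasmic translation in *Drosophila melanogaster*. They were taken as every protein-coding gene of the Release 6 annotation whose symbol starts with eIF or eEF followed by a digit. The rule gave 51 genes of 13986 protein-coding genes. It used names alone and no measured value. The data were chromatin immunoprecipitation sequencing (ChIP-seq) peak lists from whole embryos, mixed-sex and 0 to 24 hours old, of the strain 1T-GFP, in which an insertion for bcd carries GFP at the C-terminal end of the protein. Both libraries came from this 1 transgenic line and formed 1 group, replicates 1 and 3 being separate biosamples per the labels, so the study had no second genotype, stage or treatment. GFP was the target of the precipitating antibody, although bcd stands in the antibody field, and a control experiment that the labels mention was not analysed here. Bicoid, the product of bcd, is a maternal homeodomain protein that patterns the head end of the embryo.

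Translation starts when initiation factors (eIFs) bring the small ribosomal subunit, the initiator tRNA and the capped end of an mRNA together and scan for a start codon. Elongation factors (eEFs) then deliver each aminoacyl-tRNA and move the ribosome along the mRNA. Most of these proteins are needed in every growing cell, and several have paralogs used mainly in the germ line. One member has a known tie to Bicoid at the level of protein: eIF4EHP, a cap-binding repressor, is recruited by Bicoid to caudal mRNA in the early embryo. The lists used here hold positions of precipitated chromatin and no measure of expression or translation.

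The measurement behind every value was the authors' signal value of a peak, a score on the scale of their peak caller that was ranked within a list. Values of both libraries are also given side by side, and since their scales were not set against each other here, equal values do not show equal binding. The list thresholded by irreproducible discovery rate (IDR) held 6054 entries, and each of them had the same rank in the relaxed list of the pooled replicates, which held 30000 entries. An entry of the IDR list was therefore one of the 6054 strongest pooled entries, with signals between 125 and 4627. The relaxed list of each library also held 30000 entries, down to a signal of 14.6 in replicate 1 and 19.1 in replicate 3. The lists hold no read counts, so sequencing depth is unknown here, and a gene without an entry had no peak above the lower end of a list, which does not show absence of binding. In whole embryos, fewer nuclei with the protein at a site and less protein per nucleus cannot be told apart. A summit was given to a gene when it lay in the gene body or in the 5 kb upstream, and the distance to the nearest start of any transcript of that gene is negative upstream.

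The stretches below are the starts of 6 members with a promoter summit in the IDR list and of 2 members with no entry, and they are shown because the position of the summit relative to the start is the main description given here. The first 6 are those with the strongest IDR signal, on 2L, 3L and 3R, whose own stretch holds a summit. Each runs 5′ to 3′ on the strand of the gene and ends 20 bases after the start, and it begins up to 280 bases before it or where the next exon ends. The sequence is that of the RefSeq Release 6 (dm6) genome. Capitals mark TATCGATA, GGTCACAC or TATAAA on either strand. TATCGATA is the DNA replication-related element of fly promoters, and GGTCACAC belongs to the motif named Ohler 1. TATAAA holds the letters of the TATA box. It was marked at any distance from the start, so a marked copy need not be a TATA box.
eIF4EHP (chr3R:24108941-24109240, minus strand): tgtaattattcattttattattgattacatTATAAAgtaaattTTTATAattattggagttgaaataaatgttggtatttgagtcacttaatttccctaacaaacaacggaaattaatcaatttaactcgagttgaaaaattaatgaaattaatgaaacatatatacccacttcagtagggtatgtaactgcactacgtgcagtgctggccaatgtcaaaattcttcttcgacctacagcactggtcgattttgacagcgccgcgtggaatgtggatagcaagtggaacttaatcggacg
eEF1gamma (chr3R:29219892-29220191, plus strand): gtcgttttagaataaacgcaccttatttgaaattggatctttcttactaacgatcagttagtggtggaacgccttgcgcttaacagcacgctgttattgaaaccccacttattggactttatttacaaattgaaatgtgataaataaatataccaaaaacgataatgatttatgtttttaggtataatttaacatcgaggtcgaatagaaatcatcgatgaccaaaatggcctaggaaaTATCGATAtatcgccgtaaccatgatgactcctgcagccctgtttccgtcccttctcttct
eIF1 (chr3L:3223061-3223360, plus strand): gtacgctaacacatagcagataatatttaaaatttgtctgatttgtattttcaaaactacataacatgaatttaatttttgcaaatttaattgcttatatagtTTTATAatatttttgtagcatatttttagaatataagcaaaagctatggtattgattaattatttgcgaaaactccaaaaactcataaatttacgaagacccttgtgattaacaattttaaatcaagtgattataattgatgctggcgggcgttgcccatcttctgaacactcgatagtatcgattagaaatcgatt
eIF3a (chr3R:4433876-4433964, minus strand): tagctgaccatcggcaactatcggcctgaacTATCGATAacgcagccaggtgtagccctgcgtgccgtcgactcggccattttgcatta
eIF4A (chr2L:5981484-5981783, plus strand): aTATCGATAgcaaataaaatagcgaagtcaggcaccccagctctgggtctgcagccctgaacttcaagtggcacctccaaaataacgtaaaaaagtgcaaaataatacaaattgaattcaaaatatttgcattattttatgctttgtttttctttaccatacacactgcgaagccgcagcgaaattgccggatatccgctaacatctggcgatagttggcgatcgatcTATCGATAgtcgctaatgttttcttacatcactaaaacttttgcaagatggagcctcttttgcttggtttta
eIF2D (chr3R:29151775-29152073, minus strand): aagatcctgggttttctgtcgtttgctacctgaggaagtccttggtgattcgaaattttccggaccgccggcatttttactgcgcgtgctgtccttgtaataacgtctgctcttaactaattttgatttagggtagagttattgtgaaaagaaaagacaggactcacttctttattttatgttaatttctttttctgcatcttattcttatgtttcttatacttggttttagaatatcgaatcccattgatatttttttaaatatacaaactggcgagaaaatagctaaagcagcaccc
eIF2alpha (chrX:16446974-16447273, minus strand): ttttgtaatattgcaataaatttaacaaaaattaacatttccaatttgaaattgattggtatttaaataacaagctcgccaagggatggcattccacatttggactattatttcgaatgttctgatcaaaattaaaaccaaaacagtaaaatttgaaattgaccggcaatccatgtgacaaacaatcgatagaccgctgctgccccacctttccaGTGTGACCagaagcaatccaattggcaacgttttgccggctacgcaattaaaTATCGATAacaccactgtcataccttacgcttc
eIF3l (chr3L:12146078-12146377, minus strand): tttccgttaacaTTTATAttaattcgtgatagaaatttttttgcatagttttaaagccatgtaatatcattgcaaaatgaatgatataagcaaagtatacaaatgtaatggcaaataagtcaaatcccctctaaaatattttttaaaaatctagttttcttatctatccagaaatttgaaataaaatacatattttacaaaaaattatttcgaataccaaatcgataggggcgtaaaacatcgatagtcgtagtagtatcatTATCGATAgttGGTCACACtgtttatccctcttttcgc

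Counting from the first base printed, the summit was base 36 in eIF4EHP, 262 in eEF1gamma, 25 in eIF3a, 48 in eIF4A and 273 in eIF2D. In eIF1 the printed stretch held the weaker of the gene's summits, at base 164. The eIF4EHP summit lay 3 bp from the centre of a TATAAA, the eIF3a summit 10 bp and the eEF1gamma summit 18 bp from the centre of a TATCGATA. The eIF2D stretch held none of the 3 words. The starts of eIF2alpha and eIF3l were chosen after their values were seen, because both held TATCGATA and GGTCACAC close to the start while neither gene had an entry in any of the 4 lists.

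Translation factor genes carried IDR peaks about as often as the average gene when the whole window was counted. An IDR summit lay in the window of 22 of the 51 members (43.1%), against 41.6% of all protein-coding genes. Within 500 bp of an own start, 16 members had an IDR summit (31.4%), against 23.0% of all protein-coding genes. When a summit counted only if no start of another annotated gene was nearer, 13 members had one (25.5%), against 23.1%. In the relaxed pooled list, 35 members had an entry in the window (68.6%), against 71.7% of all protein-coding genes, and 28 had one within 500 bp of an own start (54.9%), against 43.9%. The share near the start was thus above that of all genes in both lists, and the share in the whole window lay close to it, a little above for the IDR list and a little below for the relaxed list.

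Gene length bears on the count in the window. The members were 736 bp (eIF4E6) to 45884 bp (eIF4EHP) long, with a median of 1966 bp, against a median of 2162 bp for all protein-coding genes. Among the 34 members of at most 3000 bp, 14 had an IDR summit in the window (41.2%), against 32.9% of the 8657 protein-coding genes of that size. Within 500 bp of an own start it was 9 of these 34 (26.5%), against 17.5%. The limit of 3000 bp was chosen after seeing the data.

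Other genes of the translation machinery were counted from lists written for this comparison. The 92 genes of cytoplasmic ribosomal proteins had an IDR summit in the window in 81 cases (88.0%) and within 500 bp of an own start in 77 (83.7%). The 33 aminoacyl-tRNA synthetase genes, which charge tRNAs, had one in 14 (42.4%) and 10 (30.3%). Of 23 further genes, release factors, recycling factors and regulators of translation, 18 (78.3%) had a summit in the window and 13 (56.5%) near the start, with a longer median length of 6191 bp. The translation factors thus stood beside the synthetases and below the ribosomal protein genes in both counts, differences that were given no test.

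**Figure D1:**
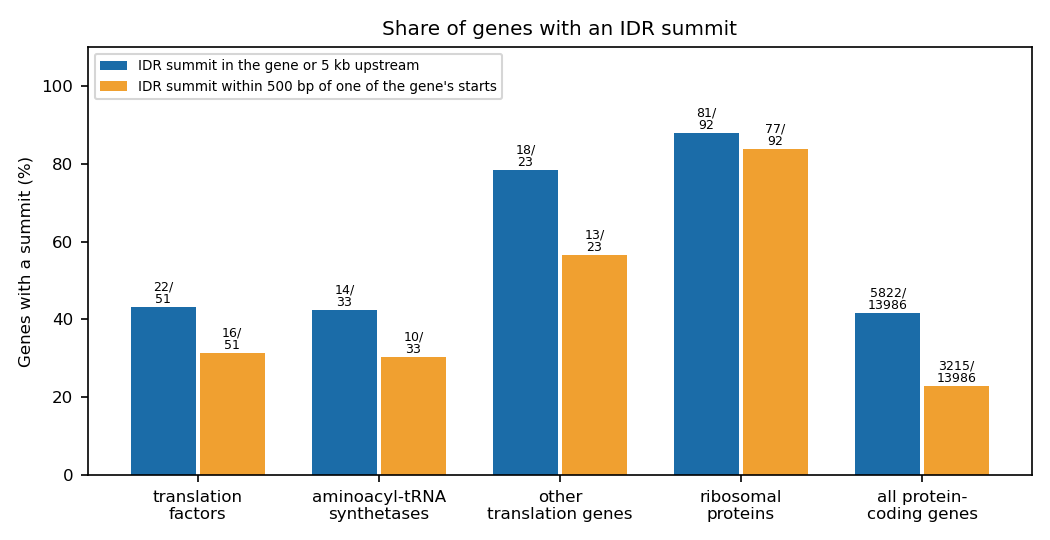
The bars give the percentage of genes whose window, the gene and 5 kb upstream, held an IDR summit (blue), and of genes with one within 500 bp of an own start (orange), for the translation factor genes, 3 lists of other translation genes and all protein-coding genes, with counts above the bars. The translation factor bars stand at 43.1% and 31.4%, beside 41.6% and 23.0% for all protein-coding genes and 88.0% and 83.7% for ribosomal protein genes.

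The window of the 22 marked members held 37 IDR summits, all distinct. Of these, 27 lay upstream of the gene, 6 in introns, 4 in untranslated regions and 0 in coding exons of the member. Within 500 bp of an own start there were 20 summits, and for 16 of the 37 the nearest start of any gene was the member's own. An overlapping entry was present in both libraries for 35 of the 37, and for 5836 of all 6054 IDR peaks. The IDR list was made from both libraries, so such overlap is partly built in. Among the 37, the exceptions were the eIF4E1 peak, found in replicate 1 alone, and the peak upstream of eIF3b, found in replicate 3 alone.

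**Figure D2:**
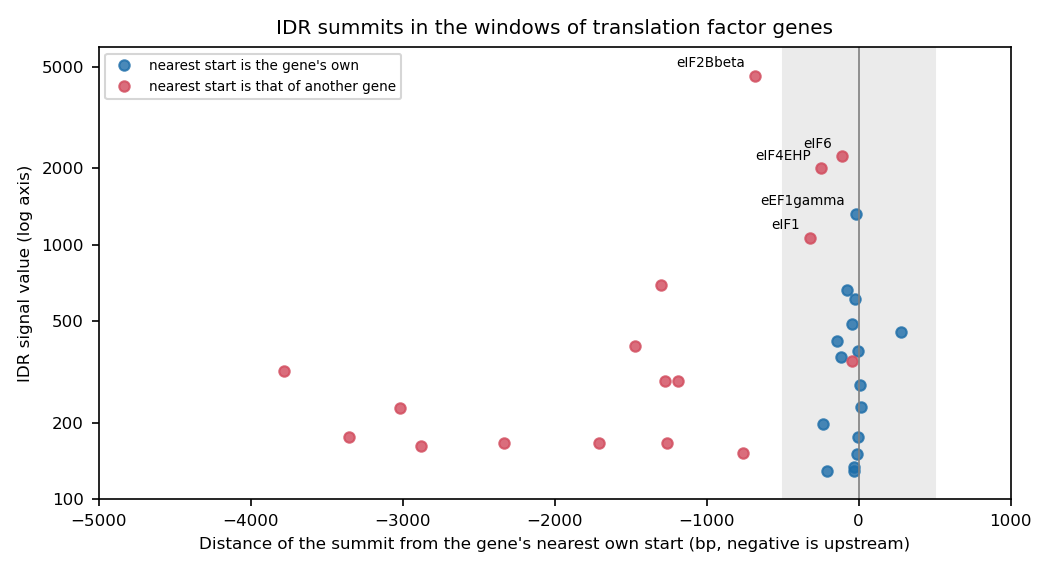
Each point is an IDR summit in the window of a translation factor gene, placed by its distance from the gene's nearest own start (bp, negative upstream) and its pooled signal value on a log axis; grey marks 500 bp on either side of the start. Blue summits, nearest to the gene's own start, cluster at 0, red ones are nearer to another gene's start, and 4 intronic summits of eIF4EHP and eIF5B beyond 1000 bp downstream are not drawn.

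At the promoters, the strongest summit of each of the 16 genes lay upstream of the start in 14 cases (87.5%), against 89.2% of the 3215 protein-coding genes with such a summit. The median distance was -35.0 bp, between -317 and 280 bp, against a median of -135 bp for the strongest such summit of those genes. Without replicate 1 the members' median was -57 bp. Of the 16, 9 lay within 50 bp of the own start, a count given here without the same share over all protein-coding genes. Among these, the eIF3a summit was nearer to the start of CG1074. The median rank of the 16 in the IDR list was 1138.5, against 2224 for all protein-coding genes with such a summit, and their median signal was 436, against 282. These medians are descriptions of 16 genes and were given no test.

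One set holds the genes of the factors that choose the start site, eIF1, eIF1A and eIF5, and of eIF5B, the GTPase that joins the large subunit. The eIF1 gene had the strongest peak of this set, at chr3L:3222855-3223199, with a pooled signal of 1067 (rank 199), 460 in replicate 1 (rank 229) and 608 in replicate 3 (rank 193). Its summit lay 317 bp upstream of eIF1 and 64 bp from the start of RpL28, a ribosomal protein gene that is transcribed away from eIF1 with 381 bp between the starts. A second IDR summit lay 117 bp upstream of eIF1 with eIF1 as the nearest start, signal 362 and rank 1507, within the same peak of each library. So the strongest summit in this shared promoter was the one nearer to RpL28.

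The eIF5B gene is 32320 bp long and held 4 IDR summits. The one at its promoter had a signal of 417 (rank 1216), with 187 in replicate 1 and 234 in replicate 3, and lay 140 bp upstream of one of 2 annotated starts, inside the leader of the longer transcript. The other 3 lay in its introns, 22000 to 27729 bp downstream of the start, and the strongest of them had a signal of 443. Among the 3, replicate 1 and replicate 3 were close for the strongest, at 212 and 235, and apart for the weakest, at 47.5 and 135. The start of another gene was nearer to all 3 than that of eIF5B, at 7939 bp or more. The eIF1A gene had only a relaxed entry, of signal 54.1, 111 bp upstream of eIF1A and 108 bp from the start of Vps39, with 39.3 in replicate 1 and no overlapping entry in replicate 3. For eIF5, the gene of the protein that makes eIF2 hydrolyse its GTP, none of the 4 lists had an entry.

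The eIF2 complex carries the initiator tRNA as a ternary complex with GTP, and eIF2B is the exchange factor that reloads eIF2. None of the 8 genes of these 2 complexes had an IDR summit within 500 bp of its own start, beside 23.0% of all protein-coding genes. Elsewhere in the window 4 of them had one, beside 41.6% of all protein-coding genes with a summit in the window. The strongest peak of the whole IDR list, with a signal of 4627 and rank 1 in both libraries (2288 in replicate 1, 2358 in replicate 3), fell in the window of eIF2Bbeta. Its summit lay 680 bp upstream of eIF2Bbeta and 39 bp from Ugalt, which is transcribed away from it. At the eIF2Bbeta start itself there was a relaxed entry of signal 33.6 (rank 24302), with 24.4 in replicate 1 and none in replicate 3. The window count for this gene thus rested on a peak at another gene's start.

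The same held for eIF2Bgamma, which encodes a subunit of the catalytic part of eIF2B. Its IDR summit had a signal of 291 (rank 2134), with 172 in replicate 1 and 113 in replicate 3, and lay 1276 bp upstream and 22 bp from the start of CG8187. At the eIF2Bgamma start the relaxed list had an entry of signal 50.7 (rank 15200) at -41 bp. The regulatory subunit gene eIF2Bdelta had summits of signal 229 (rank 2935) and 152 (rank 4867), at -3017 and -758 bp. These were nearest to the starts of lncRNA:CR44784 and CG30414. It also had a relaxed entry of signal 50.5 at -70 bp, 12 bp from the nearer start of roh. For both genes the relaxed entry near the own start overlapped one of replicate 1, of signal 40.8 at eIF2Bgamma and 54.6 at eIF2Bdelta, and none of replicate 3. The genes eIF2Balpha and eIF2Bepsilon had no pooled entry, and eIF2Bepsilon had a replicate 1 entry of signal 45.6 at -108 bp. The start of the divergent gene Ocrl lay 107 bp from that of eIF2Bepsilon, so this entry was nearer to Ocrl.

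Of the eIF2 subunits, eIF2beta came close to a promoter call. Its IDR summit, signal 161 (rank 4538), lay 2881 bp upstream inside an intron of nst, with 68.0 in replicate 1 and 90.0 in replicate 3. A second entry lay 245 bp downstream of the start, in an intron, with a signal of 125 and rank 6082 in the pooled list, just past the last IDR rank of 6054. It had 55.6 in replicate 1 (rank 6863) and 76.6 in replicate 3 (rank 5437). The gene of the subunit that is phosphorylated under stress, eIF2alpha, had no entry in any list, and eIF2gamma, the GTP-binding subunit, had a single replicate 1 entry of signal 53.8 at -2144 bp.

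The pair eIF2D and eIF2A encode factors that can bring tRNA to the ribosome without eIF2. The eIF2D promoter peak had a signal of 175 (rank 4093), 7 bp upstream of the start, with 78.2 in replicate 1 and 91.4 in replicate 3. A second summit, signal 129 (rank 5861), lay at -211 bp and overlapped the same entry of each library. The summits of these library entries lay at -108 bp in replicate 1 and -82 bp in replicate 3. Another IDR summit, signal 166, lay at -1706 bp and 24 bp from Rpn2. The eIF2A gene had no pooled entry, although replicate 3 had one of signal 102 (rank 3943) at -40 bp and replicate 1 one of 17.5 (rank 24549) at 131 bp. Its start was therefore among the 6054 strongest entries of a single library.

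The eIF3 complex is the large scaffold that holds the small subunit and the mRNA factors together, and its 16 genes included 5 with an IDR summit at the promoter, beside 23.0% of all protein-coding genes. A pooled entry lay in the window of 11 of the 16, beside 71.7% of all protein-coding genes, and 5 had none. Of the core subunits, eIF3c had the strongest promoter peak of the complex, signal 487 (rank 948) at -42 bp, with 234 in replicate 1 and 250 in replicate 3. The eIF3a gene, for the largest core subunit, had signal 349 (rank 1609) at -45 bp, in a promoter shared with CG1074, whose start lay 25 bp from the summit. Among the 15 member promoter peaks with a value in both libraries, its values lay farthest apart, with 249 in replicate 1 (rank 782) and 98.6 in replicate 3 (rank 4097), a ratio of 2.52. A second eIF3a summit, signal 175, lay 3350 bp upstream beside Lipt2.

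The gene eIF3b, for another core subunit, had its IDR summit 2333 bp upstream in an intron of Patronin, with signal 166 (rank 4365), 121 in replicate 3 and no overlapping entry in replicate 1. At its own start, 31 bp downstream, the pooled signal was 124 and the rank 6125, just outside the IDR list. There replicate 1 had 86.8 (rank 3976) and replicate 3 had 32.8 (rank 13853). The start was thus among the 6054 strongest entries of replicate 1 and not of replicate 3.

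Of the remaining eIF3 genes with a promoter summit, eIF3h had the strongest, signal 455 (rank 1061), 280 bp downstream of one of its 2 starts in an intron, with 228 in replicate 1 and 223 in replicate 3. A second eIF3h summit, signal 280 (rank 2236), lay 7 bp from that start. The eIF3m peak had signal 231 (rank 2895) at 14 bp, with 105 and 125 in replicates 1 and 3. Both genes encode subunits that mammals have and budding yeast lacks. The eIF3d1 gene, for the subunit known in human cells to bind the mRNA cap, had a promoter peak of signal 150 (rank 4946) at -14 bp, with 68.4 in replicate 1 and 79.4 in replicate 3. A stronger summit in the eIF3d1 window, signal 694 (rank 490), lay 1300 bp upstream and 156 bp from the start of GILT2.

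Relaxed entries alone were found at eIF3k, with signal 60.4 at -45 bp and overlapping entries of 29.3 and 24.6 in replicates 1 and 3, and at eIF3f1, eIF3f2, eIF3g2 and eIF3d2. The eIF3d2 gene, for the paralog of eIF3d1, had a pooled signal of 35.3 (rank 22896) at -1256 bp, with 22.2 in replicate 1 and no overlapping entry in replicate 3. At eIF3f1 the pooled entry, signal 41.9, lay 3313 bp upstream, but replicate 1 had an entry of signal 127 (rank 2367) at -33 bp that neither replicate 3 nor the pooled list had. The pooled entries of eIF3f2 and eIF3g2, genes of the paralogs of eIF3f1 and eIF3g1, had signals of 34.7 and 42.8 and lay 4371 and 2627 bp upstream. The genes eIF3e, eIF3g1, eIF3i, eIF3j and eIF3l had no pooled entry. Of these 5, eIF3e had a replicate 1 entry of signal 17.6 at 33 bp and eIF3i one of 38.7 at -3767 bp.

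The eIF4 factors recognise the cap and unwind the leader, and 3 of their 13 genes had an IDR summit at the promoter, a share like the 23.0% of all protein-coding genes. The eIF4EHP gene, for the cap-binding repressor, had one of the strongest peaks of any member, at chr3R:24108920-24109423. Its pooled signal was 2001 (rank 33), with 946 in replicate 1 (rank 36) and 1061 in replicate 3 (rank 38). The summit lay 245 bp upstream of eIF4EHP and 131 bp from the start of CG18428, which is transcribed away from it with 376 bp between the starts. The long eIF4EHP window held 2 more summits, of signal 334 in an intron 9795 bp downstream and of signal 320 at -3779 bp beside a leucine tRNA gene.

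The helicase gene eIF4A had a promoter peak of signal 197 (rank 3518) at -233 bp, with 118 in replicate 1 and 99.3 in replicate 3. A weaker summit, signal 129 (rank 5848), lay 30 bp upstream of its start and overlapped the same entry of each library. The summits of these library entries lay at -92 bp in replicate 1 and -260 bp in replicate 3. The gene of the main cap-binding protein, eIF4E1, had the weakest promoter summit of the 16, signal 134 (rank 5576) at -28 bp, with 73.5 in replicate 1 and no overlapping entry in replicate 3. The summit in the promoter that eIF4EHP shares with CG18428 thus ranked near the top of the list, and that of eIF4E1 near its end.

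The further eIF4E paralogs had no IDR summit. Relaxed entries were present for eIF4E4, signal 45.3 (rank 17191) at -172 bp, with 22.3 in replicate 1 and 24.8 in replicate 3, for eIF4E3, signal 35.6 (rank 22641) at -4283 bp, with 16.7 in replicate 1 alone, and for eIF4E5, signal 37.0 (rank 21724) at -4969 bp, with 24.9 in replicate 3 alone. The eIF4E3 gene is known for its role in spermatogenesis. The eIF4E6 gene had no pooled entry and a replicate 1 entry of signal 37.1 at -49 bp. The start of the divergent gene CG1951 lay 62 bp from that of eIF4E6, so this entry was nearer to CG1951. The eIF4E7 gene had no entry in any list. The highest pooled signal among these 5 paralogs was 45.3. That it did not exceed the lowest IDR signal, 125, follows by construction, since none of them had an IDR summit.

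The scaffold gene eIF4G1 had no entry in any list, while its paralog eIF4G2 had an IDR summit of signal 166 (rank 4361) at -1260 bp, in an intron of CG34355 and 95 bp from a start of that gene. That peak had 90.4 in replicate 1 and 62.0 in replicate 3. At the eIF4G2 start, 66 bp upstream, the relaxed list had an entry of signal 99.5 (rank 7650), with 31.3 in replicate 3 and no overlapping entry in replicate 1. A start of CG33111 lay at the same distance from that entry. The cofactors of the helicase were weakly marked or unmarked. The eIF4B gene had a relaxed entry of signal 39.4 at -142 bp, and eIF4H1 had no entry in any list. For eIF4H2 the relaxed list had an entry of signal 42.5 at -3513 bp and a weaker one near the start. The weaker one, signal 31.6 (rank 26079) at -403 bp, had 29.1 in replicate 3 and no overlapping entry in replicate 1.

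The eIF6 gene encodes a factor that keeps the large and small ribosomal subunits apart and acts in making the large one. It had the strongest promoter peak of all members, at chr2R:23850218-23850583, with a pooled signal of 2230 (rank 25), 1117 in replicate 1 (rank 21) and 1118 in replicate 3 (rank 28). The summit lay 109 bp upstream of eIF6, inside an intron of ytr and an exon of the antisense RNA gene asRNA:CR45928, whose start, at 80 bp, was nearer. The peak lists carry no strand, so which of these overlapping genes the peak belongs to cannot be told apart.

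Of the 7 elongation factor genes, 4 had an IDR summit at the promoter, beside 23.0% of all protein-coding genes. The same 4 of the 7 had a summit in the window whose nearest start was their own, beside 23.1% of all protein-coding genes. The eEF1gamma gene, for a structural subunit of the exchange factor of eEF1alpha, had a peak at chr3R:29219912-29220331 with a pooled signal of 1328 (rank 116), 706 in replicate 1 and 639 in replicate 3, 19 bp upstream. It was the strongest member peak whose nearest start was the member's own. The gene of the factor that delivers aminoacyl-tRNA, eEF1alpha1, had signal 665 (rank 540) 77 bp upstream of one of its 4 starts, inside an intron of the longer transcripts, with 320 in replicate 1 and 347 in replicate 3. Its window held 2 more summits, of signal 400 and 291, in an intron of the divergent gene ERp60.

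The eEF5 gene, for the hypusine-containing factor also called eIF5A, had signal 610 (rank 637) at -22 bp, with 285 in replicate 1 and 322 in replicate 3. The translocase gene eEF2 had signal 381 (rank 1397) at -1 bp from one of 2 starts, with 233 in replicate 1 (rank 869) and 152 in replicate 3 (rank 2375). The other exchange factor subunits were weaker. The eEF1beta gene had a relaxed entry of signal 74.0 at -372 bp, nearest to Psi, with 38.4 and 37.6 in replicates 1 and 3. In the eEF1beta window, replicate 1 also had a stronger entry, of signal 80.9 (rank 4346) at -1004 bp. The eEF1delta gene had no pooled entry and a replicate 1 entry of signal 57.4 at -1193 bp. The paralog eEF1alpha2, which encodes a further form of the tRNA-delivering factor, had a relaxed entry of signal 36.2 (rank 22233) 1722 bp downstream of its start, with 20.1 and 21.6 in replicates 1 and 3.

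**Figure D3:**
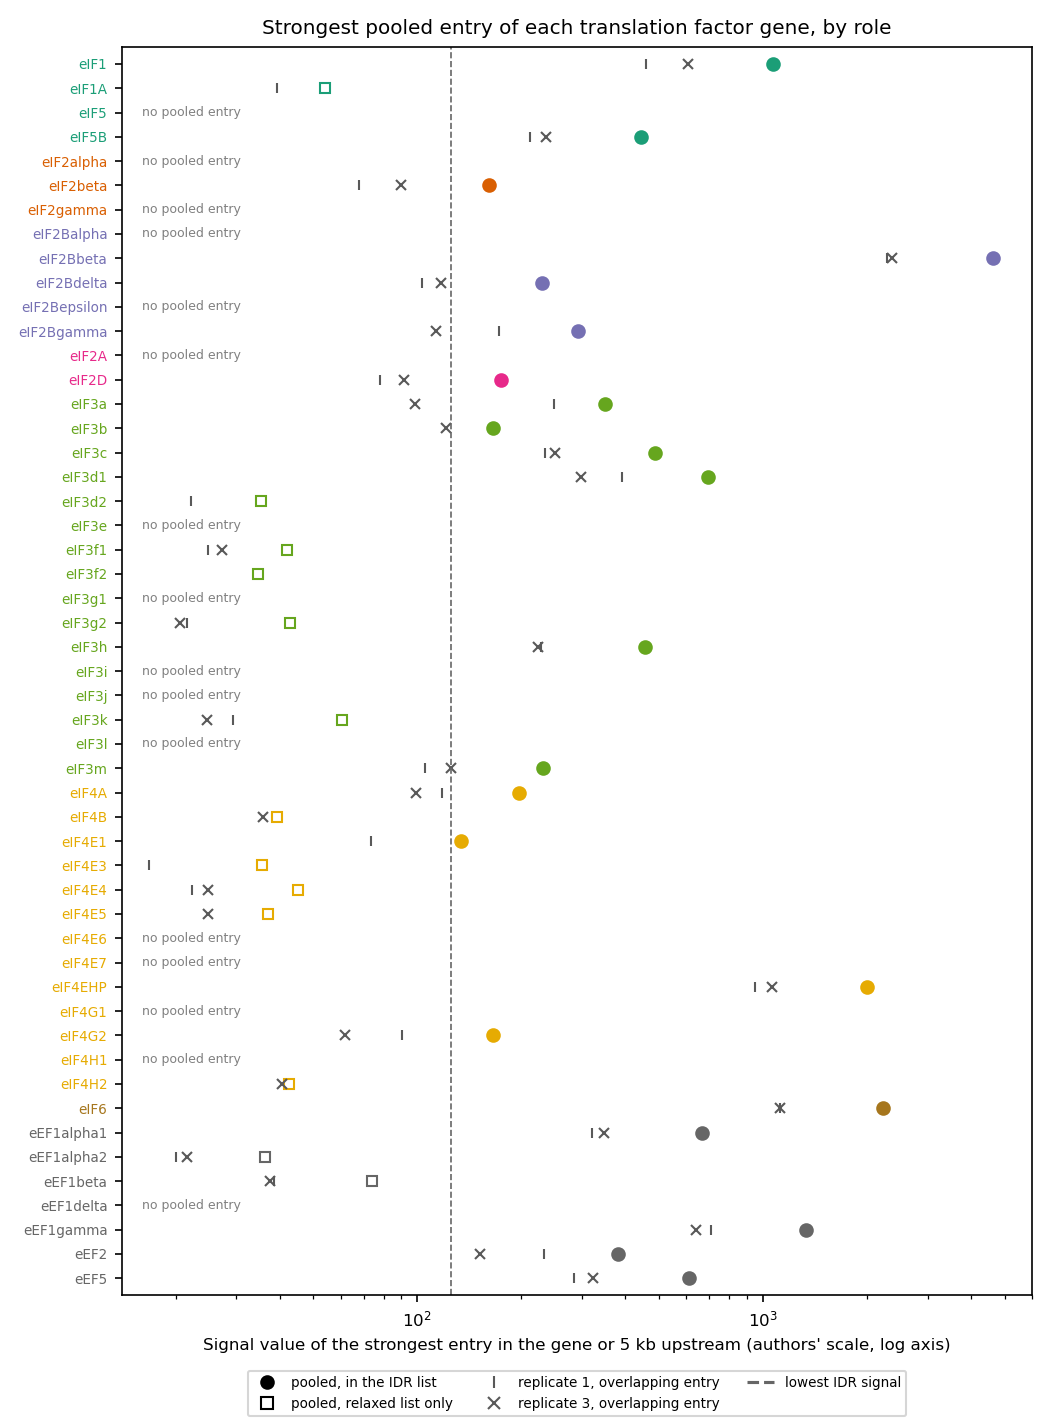
For each of the 51 translation factor genes, coloured by role, the plot gives the signal of the strongest pooled entry in the gene or 5 kb upstream on a log axis (filled for IDR entries, open for relaxed ones), with the overlapping entries of replicate 1 (bars) and replicate 3 (crosses). Signals run from 34.7 at eIF3f2 to 4627 at eIF2Bbeta, the dashed line is the lowest IDR signal of 125, and 16 genes have no pooled entry.

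Across members, 16 of 51 genes had no pooled entry in the window and 13 had relaxed entries only. Of the 16, 7 had an entry in replicate 1, eIF2A had one also in replicate 3, and 9 had none in any list, namely eIF2Balpha, eIF2alpha, eIF3g1, eIF3j, eIF3l, eIF4E7, eIF4G1, eIF4H1 and eIF5. They were unevenly spread over the arms. All members on X other than eIF2Bbeta, 6 of 7, had no pooled entry, and 0 of the 7 had an IDR summit at the own start. Over all protein-coding genes of X the shares were close to those elsewhere, with 73.5% having a pooled entry in the window, 42.8% an IDR summit in it and 22.4% one within 500 bp of a start.

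On arm 2R, 8 of 12 members had an IDR summit in the window and 5 at the start, against 40.2% and 21.6% of the protein-coding genes of that arm. On 3R it was 6 and 5 of 15 members, against 43.3% and 25.3%. On 3L it was 4 and 3 of 11 members, against 42.6% and 23.2%, and on 2L 3 and 3 of 5, against 40.4% and 22.8%. With 5 to 15 members an arm, these counts are small. The single member on chromosome 4, eIF4G1, had no entry, and on that chromosome 16.2% of the 80 protein-coding genes had an IDR summit in the window. Whether members differ between arms was not tested.

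Most member promoters named by one library were also named by the other. With the 6054 strongest entries of a single library in place of the IDR list, 18 members had a summit within 500 bp of an own start in replicate 1 (35.3%), against 27.3% of all protein-coding genes. In replicate 3 it was 17 members (33.3%), against 20.8%. For 15 members a promoter summit was present in the IDR list and in the strongest entries of both libraries. The IDR list was made from both libraries, so its overlap with each is partly built in. The same count over all protein-coding genes is not given here. In replicate 1 and not replicate 3 were eIF3b, eIF3f1 and eIF4E1, and in replicate 3 and not replicate 1 were eIF2A and eIF2beta.

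The ratio of the signal in replicate 1 to that in replicate 3 had a median of 0.921 over the 15 promoter peaks with both values, from 0.757 at eIF1 to 2.52 at eIF3a, and was above 1 in 5 of them. Over the 2570 IDR peaks within 500 bp of a protein-coding start with both values the median was 0.971, and over 5836 IDR peaks it was 0.849. The ratio was 0.999 at eIF6 and 0.891 at eIF4EHP, the strongest of them, and highest at eIF3a and eEF2. Because the authors called peaks per library and on both together, a pooled value is not a measurement separate from the 2 libraries. With 1 group of 2 libraries no test of a difference between conditions was possible.

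**Figure D4:**
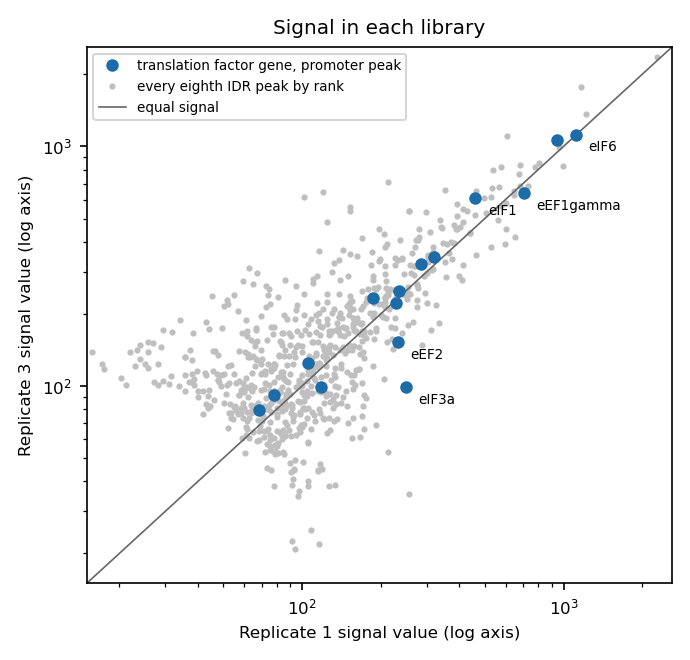
Signal in replicate 1 (horizontal) against replicate 3 (vertical), both on log axes, for the promoter peaks of the translation factor genes (blue, 15 with both values) and for every eighth IDR peak by rank (grey), with the line of equal signal. The 2 strongest blue points, eIF6 and eIF4EHP, lie near the line, and eIF3a, with 249 in replicate 1 and 98.6 in replicate 3, lies farthest below it among the blue points.

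The promoter sequences, 250 bp before to 50 bp after the gene's start, were searched for 5 words and set beside 13968 protein-coding promoters of the same length. TATCGATA, on either strand, was in 14 of the 51 member promoters (27.5%), against 9.36% of all promoters. Of the 14, 5 had an IDR summit within 500 bp of an own start, namely eIF6, eEF1gamma, eIF3c, eIF3a and eIF4A, against 34.7% of all promoters with the word. The word was also in the promoters of eIF2gamma, which held 3 copies, and of eIF2alpha, eIF3l, eEF1delta and eIF4E6, all with no pooled entry. Promoters with this word thus stood both at the top of the list and among those without a peak.

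GGTCACAC, on either strand, was in 6 member promoters (11.8%), against 7.69% of all promoters, and none of the 6 (eIF2Bepsilon, eIF2alpha, eIF2beta, eIF3i, eIF3k and eIF3l) had an IDR summit within 500 bp of the start. Of all promoters with the word, 35.5% had one. TATAAA, on either strand, was in 23 (45.1%), against 45.8%, and 10 of the 23 had an IDR summit within 500 bp of an own start, against 22.9% of all promoters with the word. TAATCC is the core of the sequence that Bicoid binds in vitro. On either strand, it was in 3 member promoters (5.88%), those of eEF1beta, eIF2Bbeta and eIF4E7, against 8.73% of all promoters. None of these 3 had an IDR summit within 500 bp of an own start, against 21.1% of all promoters with the word. With 3 promoters, little can be read from that count. Within 100 bp of the strongest IDR summit these letters were found in 0 of the 22 marked members, against 6.75% of the 5822 marked protein-coding genes.

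TCTTTT on the gene's strand within 15 bp of the start, the core of the initiator known from ribosomal protein genes, was in 5 member promoters (9.80%), against 1.28% of all promoters. The 5 were eIF3e, eIF3g1, eIF3i, eIF4A and eIF4E5, of which eIF4A alone had an IDR summit within 500 bp of an own start. Of all promoters with the word, 33.0% had one, and 5 members are few to set beside that share. A match is a description of the letters in the window and shows no binding by any factor. TATCGATA and GGTCACAC occurred together in eIF2alpha and eIF3l, whose starts are printed above.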

How the data were processed

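Per the labels, 2 ChIP-seq libraries of bcd-eGFP embryos, replicates 1 and 3, formed 1 group, from sonicated chromatin with a size range of 200 to 800. The authors deposited peak lists in narrowPeak layout with their signal value per peak, a relaxed list for each library and for the pooled replicates, and an IDR-thresholded list, per the deposited file descriptions. The peak caller and aligner, not given in the sources used here, remain unnamed. Only lists on dm6 (Release 6) were used, and the dm3 lists were left out.

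From these files, summits were placed on the Ensembl BDGP6.54 annotation (release 115) with Python 3.11.15 and numpy 2.4.6, and drawn with matplotlib 3.10.9. All 51 members had the same coordinates in RefSeq, and all 6054 IDR entries lay inside the arms. Coordinates count from 1. Starts are those of any annotated transcript, transposable elements left out. Replicate entries were matched by an overlap of at least 1 bp. Of the 13986 protein-coding genes, 13968 lay on the chromosome arms read for the word search. The counting steps were tested on simulated data.

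The rule for named genes asked for all values of up to 15 members with the strongest IDR summits within 500 bp of an own start and of members without an IDR summit whose paralog has one, and for an account of every member by name or count. Values of the remaining members were added after they were seen. Other genes are named where a member's summit lies in or near them. The members and lists were chosen with earlier results of these data known. Of the list of further translation genes, Tor and Elf were not found under those symbols. Results are counts beside those of all protein-coding genes, with no test. The alternatives changed the window, the assignment of summits, the list used, the overlap and the word window, and dropped each replicate. The limit on gene length and the ranks within each library were added after seeing the data.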

Additional observations from a re-analysis of the deposited data

How the results depend on the processing

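The count of 22 members with an IDR summit in the window stayed between 15 and 22 with 1 kb upstream, any base of the peak, the nearest protein-coding start or the entries above the median IDR signal. It was 14 when each summit went only to the nearest annotated start, a rule that differs from the window. The 13 members given above were those whose summit met both the nearest-start rule and the window. With all pooled relaxed entries the count was 35, and by construction it could not be below 22. Without one replicate it was 21 to 24. The count of 16 within 500 bp of an own start was 12 to 18 under the other distances, starts and the entries above the median signal, 28 with all relaxed entries, and 17 to 18 without one replicate. The median distance from the start was -57 to -37.5 bp without one replicate (main value -35.0), and the median rank of the strongest summits, 1250.5 in the IDR list, was 869 to 1329 in the list of a single replicate; the cause was not tested. Around the summits in place of the promoters, TATCGATA was in 18.2% and TAATCC in 0.00% of the 22 marked members, against 6.66% and 6.75% of all marked protein-coding genes. In the shorter window of 100 bp before to 50 bp after the start, TATAAA was in 25.5% and TAATCC in 1.96% of the members, against 23.9% and 3.92% of all promoters. Of the 37 member peaks, 31 were shared by both libraries under either stricter rule of overlap, a count given here without that of all IDR peaks. No paired analysis was possible because there was 1 group and no result came from a test. Unknown depth limits what the absence of an entry can show, and summits in promoters shared by neighbours cannot be given to either gene.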

Other observations

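Among the members, 24 had a divergent protein-coding neighbour whose start lay within 1000 bp, and 9 of these (37.5%) had an IDR summit within 500 bp of the own start, against 38.4% of the 4654 protein-coding genes with such a neighbour. Of the 27 members without one, 7 (25.9%) had a summit there, against 15.3% of the 9332 protein-coding genes without such a neighbour. These shares were compared after the data were seen and were given no test.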
